A study of Ovis aries with 15 samples.

Results

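The RAB GTPases are small membrane-bound switches that give each compartment of the secretory and endocytic routes its identity. A RAB is active on its membrane while bound to GTP and is taken off by a GDP dissociation inhibitor (GDI) once its GTP is hydrolysed. Guanine nucleotide exchange factors (GEFs) load GTP, GTPase activating proteins (GAPs) end the active state, and effectors such as tethers and motor adaptors bind only the active form. In the secretory cells of the mammary gland, milk proteins pass from the endoplasmic reticulum (ER) through the Golgi to the apical surface in vesicles, and milk fat leaves as lipid droplets wrapped in plasma membrane.

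The genes were taken by symbol, as RAB followed by a number and at most 1 letter, and 53 of the 24691 features of the table fitted that form. Of these, 44 had at least 10 exon reads in at least 6 of the 15 libraries and are the members described here. The other 9 (RAB33A, RAB37, RAB39A, RAB39B, RAB3A, RAB3C, RAB42, RAB44 and RAB9B) stayed below that minimum, with 4 to 71 reads each summed over the 15 libraries. Closest to the limit, RAB40B and RAB3B reached 10 reads in exactly 6 libraries (132 and 137 reads in all), RAB37 did so in 3 libraries (71 reads) and RAB3A in 1 (68 reads). No row under RAB11A or RAB32 was analysed here. The minimum weighs on the comparison of states: 34 members had at least 10 reads in every library, while the other 10 reached it in 6 or more late pregnancy libraries and in fewer than 6 lactation libraries, so that for scarce members the rule favoured those higher in late pregnancy.

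Needle biopsies of mammary parenchyma came from 2-year-old primiparous Romney ewes at day 135 ± 2.4 (SD) of gestation and again at day 15 ± 1.27 (SD) post partum, and RNA of several ewes was pooled before sequencing. The 9 late pregnancy libraries and 6 lactation libraries fall into 3 groups by the pasture that the ewes' own dams were given in early gestation: ad libitum (HM), maintenance (MM) and sub-maintenance (LM), with 3 late pregnancy and 2 lactation pools each. The dams of all 3 groups received a maintenance allowance later in gestation, and the ewes themselves were all managed and fed alike. The labels give 3 ewes to a late pregnancy pool and 2 to a lactation pool whereas the published methods give 3 to every pool, and since ewes were biopsied in both states the pools of the 2 states may share animals in a way the labels do not record, so each library was treated as an independent sample.

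The libraries held 7597938 to 19823166 reads on genes in late pregnancy and 10352962 to 25679416 in lactation. Genes of 7 milk proteins took 13.7 to 23.4% of the reads used in late pregnancy and 71.3 to 75.8% in lactation, and the 44 RAB members together took 0.197 to 0.220% and 0.104 to 0.121%. Levels are therefore given as CPM, reads per 1e6 of a library size scaled by TMM (trimmed mean of M values), which sets the bulk of the genes level between libraries and leaves the milk proteins out of account, so that CPM over all genes sum to more than 1e6 in lactation. Where levels of different genes are compared, reads per kilobase of exon on the same scale (TMM-scaled RPKM) are used. Changes are log2 of lactation over late pregnancy with their standard error, and "called" means an adjusted p below 0.05 in the quasi-likelihood F-test of edgeR, fitted to all 13345 tested genes. In tissue samples of this kind, fewer cells of a type and less RNA per cell cannot be told apart.

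Cell type markers moved between the same libraries. Among markers of luminal secretory epithelium, 9 of 10 were in the table, none was at 0, 8 of the 9 were higher in lactation and their summed level went from 57080 to 115600 CPM in late pregnancy to 1152000 to 1391000 CPM in lactation. That sum counts reads of the milk protein genes CSN2, CSN1S1, CSN3 and LALBA, which are on the list. The median log2 change of the 9 was 0.81, and 4 of them rose more than 2-fold. All 6 tested T cell markers (summed 42.0 to 68.8 against 13.4 to 20.9 CPM over 7 genes), 4 of 6 macrophage markers (142.3 to 190.5 against 70.4 to 101.2 CPM), 3 of 4 fibroblast markers (352.6 to 626.0 against 224.7 to 371.5 CPM) and 3 of 3 endothelial markers (140.3 to 191.5 against 85.8 to 123.9 CPM) were lower in lactation. Of 7 myoepithelial markers 2 were lower and 3 higher (707.0 to 790.3 against 654.4 to 954.3 CPM), and none of the 3 tested adipocyte markers was called (221.3 to 426.4 against 301.0 to 392.1 CPM). Of 3 tested B and plasma cell markers 1 was lower and 2 higher (28.8 to 75.1 against 61.1 to 150.4 CPM), and 1 of 2 tested neutrophil markers was higher (0.742 to 1.86 against 5.49 to 16.3 CPM). Over all tested genes 33.1% were called higher and 35.2% lower in lactation. The part of these markers in the RAB results was not tested.

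Between late pregnancy and lactation, 22 of the 44 RAB members were called higher and 9 lower, and 13 were not called. Over all tested genes 33.1% were called higher and 35.2% lower. The change exceeded 2-fold for 7 members that rose (RAB6B, RAB18, RAB26, RAB27B, RAB1A, RAB3D and RAB21) and 4 that fell (RAB19, RAB40B, RAB17 and RAB3B), where 9.13% and 13.0% of all genes did so in these directions. All 4 that fell by this much were kept through late pregnancy alone. Of the 34 members with 10 reads in every library, 6 rose more than 2-fold while the lowest log2 change was -0.72. Nothing is therefore read from the 4, and their values are given below as description only. In 18 members the late pregnancy and lactation libraries did not overlap, and this held for 40.2% of all genes, so that such a separation was about as frequent among the members as elsewhere. The median log2 change was 0.15 over the members and -0.03 over all genes. Among the 34 members with 10 reads in every library 20 were higher, 5 lower and 9 not called, with a median of 0.31.

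These counts depend on the scaling of the libraries, because the milk proteins fill most of a lactation library. With library sizes less the reads of the 7 milk protein genes, 16 members were higher and 15 lower, and with upper quartile scaling 18 and 12. With plain library sizes, which count every milk protein read, 2 members (RAB18 and RAB6B) were higher and 40 lower. The median of all genes was then -0.24, -0.18 and -1.93. These scalings move all genes alike, so the members keep their place against other genes by construction, with a median 0.18 above that of all genes and 28 of 44 members above it. Limma on quantile-normalized RPKM, which is no such uniform shift, gave 0.08 and 26 of 44, with 18 members higher and 11 lower. With library sizes less milk protein reads, RAB11B, RAB1B, RAB4A, RAB5C, RAB7A and RAB8B were no longer called higher, and RAB13, RAB14, RAB15, RAB2B, RAB34 and RAB38 were called lower. Of these, RAB11B, RAB1B, RAB4A and RAB8B also lost the call with upper quartile scaling, and RAB11B, RAB1B, RAB5C and RAB7A by limma. RAB13, RAB14 and RAB15 were also called lower with upper quartile scaling, and RAB13 and RAB14 by limma. The rises of RAB1A, RAB3D and RAB21 fell below 2-fold with upper quartile scaling (log2 change 0.997, 0.88 and 0.85). They were also below it with library sizes less milk protein reads (0.94, 0.82 and 0.79) and by limma (0.85, 0.83 and 0.80). RAB6B, RAB18, RAB26 and RAB27B stayed above 2-fold in these settings.

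**Figure D1:**
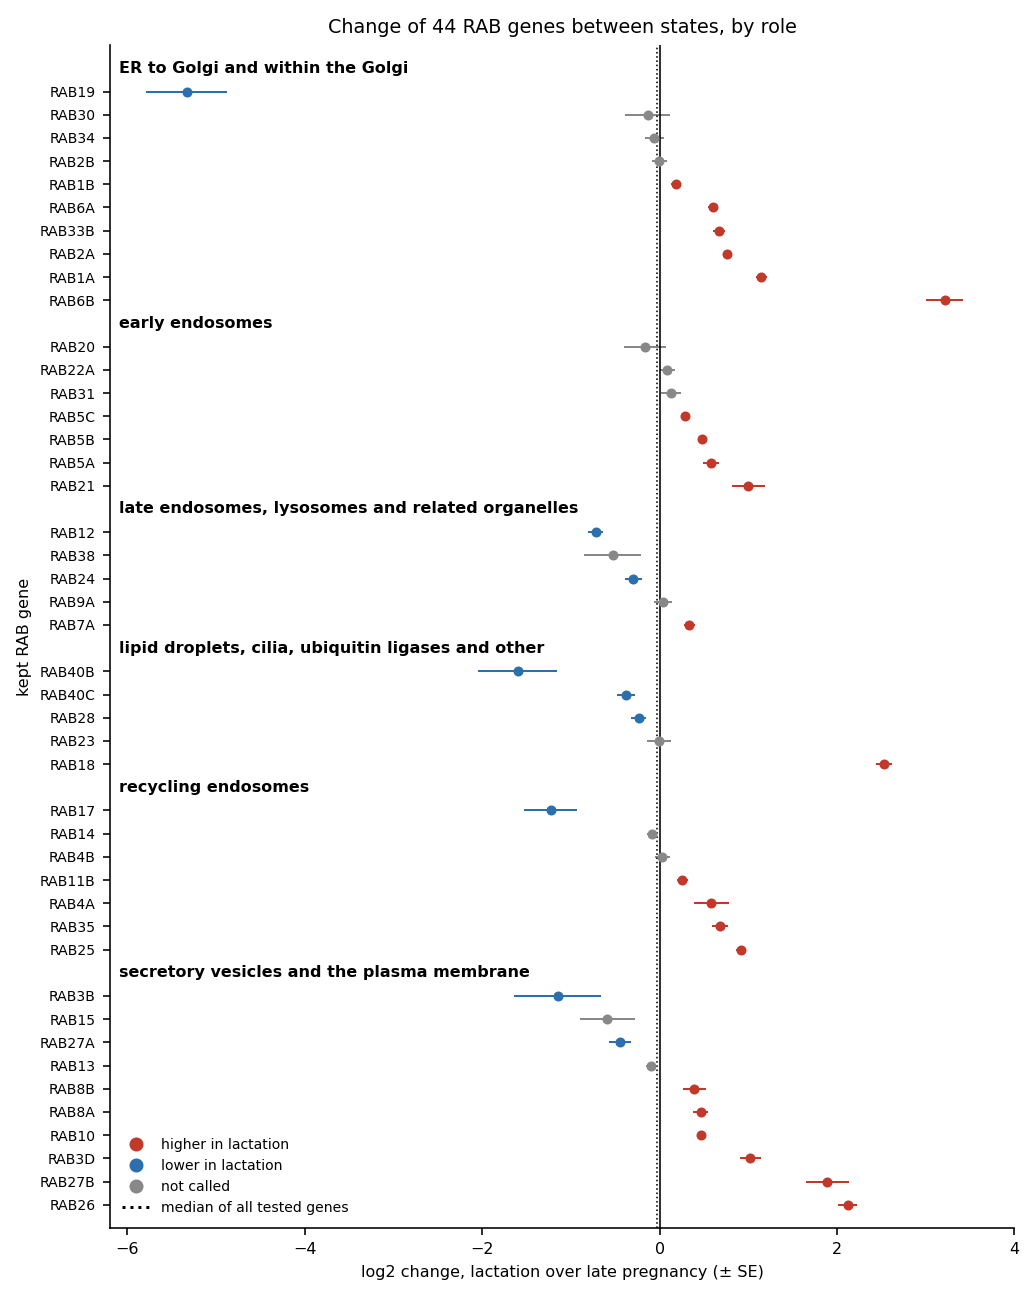
Log2 change of lactation over late pregnancy (x axis, bars ± SE) for the 44 kept RAB genes (y axis), grouped by role and coloured by call, with the median of all tested genes as a dotted line. RAB6B at 3.22 and RAB18 at 2.53 stand at the right end and RAB19 at -5.33 at the left, where the lactation libraries held only 2 reads of RAB19.

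RAB18, which sits on lipid droplets and the ER, was the most abundant member in lactation. Its 9 late pregnancy libraries held 140.8 to 226.3 CPM (median 174.8) and its 6 lactation libraries 977.7 to 1133 CPM (median 1056). The groups lay far apart, with the highest late pregnancy library well under the lowest lactation library. RAB18 rose 5.78-fold (log2 change 2.53, SE 0.09, adjusted p = 2.8e-15), and it kept a log2 change of 0.63 even with plain library sizes. The gene lies on chromosome 13 (36102588 to 36132038) in the coordinates of the deposited table, whose build the labels name Oar_v3.1.

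By TMM-scaled RPKM, RAB18 held rank 3 in late pregnancy at 65.5 ± 9.90 (SD, n = 9), next to RAB25 at 66.8 ± 4.67, a difference smaller than either spread, and behind RAB1A at 81.9 ± 6.73. In lactation RAB18 was first at 378.2 ± 21.5 (n = 6), followed by RAB1A at 181.4 ± 15.0, RAB25 at 125.9 ± 7.30 and RAB2A at 70.6 ± 4.69. The summed level of the 44 members was 739.7 to 811.5 RPKM in late pregnancy and 1308 to 1406 in lactation. RAB18 supplied 6.62 to 10.1% of that sum in late pregnancy and 25.7 to 29.2% in lactation. Without RAB18 the sums were 682.2 to 729.6 and 948.1 to 1020, which still do not overlap. The rise of these sums rests on the TMM scale. As a share of all reads used, the members went down, from 0.197 to 0.220% in late pregnancy to 0.104 to 0.121% in lactation.

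**Figure D2:**
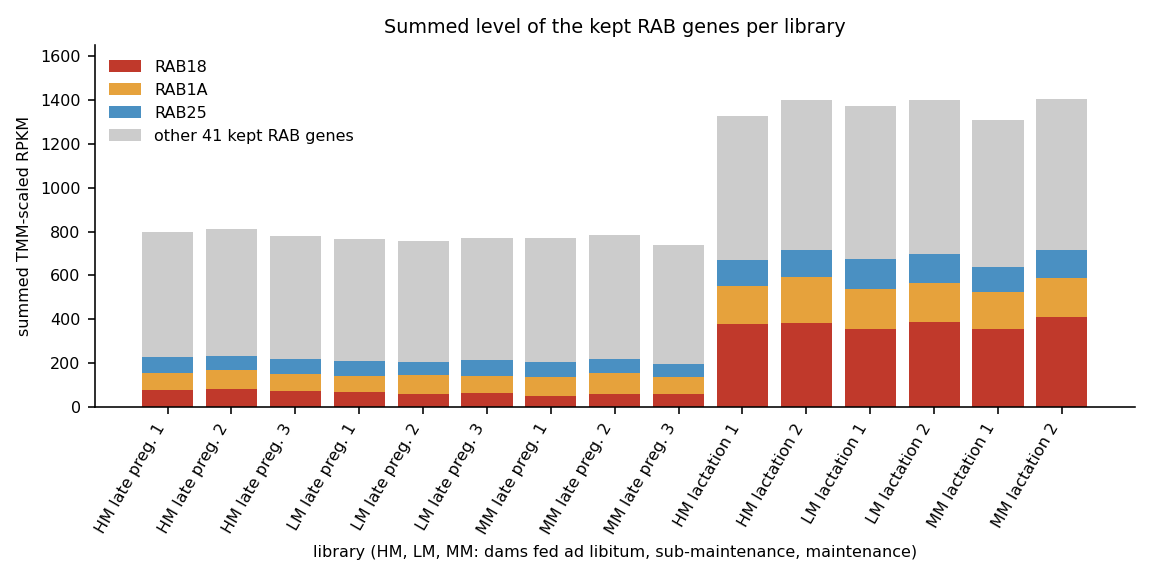
Summed TMM-scaled RPKM of the 44 kept RAB genes (y axis) in each of the 15 libraries (x axis), split into RAB18, RAB1A, RAB25 and the other 41 genes. The lactation bars reach 1308 to 1406 against 739.7 to 811.5 in late pregnancy, and the RAB18 segment grows from at most 10.1% to at least 25.7% of a bar.

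The other members of the role group that holds RAB18 did not follow it. Of its 5 members 3 were lower and 1, RAB18, higher (35.2% and 33.1% over all genes). These counts were the same with upper quartile scaling, with library sizes less milk protein reads and by limma. RAB40B and RAB40C carry a SOCS box through which they join ubiquitin ligases, RAB23 acts in cilia and Hedgehog signalling, and RAB28 is found at the cilium. RAB40B was at 0.295 to 1.03 CPM in late pregnancy (median 0.626) and at 0 to 0.338 CPM in lactation (median 0.183), so that the groups overlapped slightly at a handful of reads. It fell 3.03-fold (log2 change -1.60, SE 0.45, adjusted p = 0.0037). With only 9 reads over the 6 lactation libraries against 123 in late pregnancy, its pooled ratio was 3.12 with a 95% counting interval of 1.59 to 6.99, which covers counting error only. RAB40C was at 8.46 to 13.1 CPM in late pregnancy (median 9.89) and 7.04 to 9.44 CPM in lactation (median 7.66), and it fell 1.30-fold (log2 change -0.38, SE 0.10, adjusted p = 0.0024). Only 43.5% of the RAB40C reads were uniquely placed, and on those alone its log2 change was -0.22 and was not called (adjusted p = 0.14), so its value is uncertain. RAB28 fell by 0.24 on the log2 scale, and RAB23 had a log2 change of -0.01 and was not called.

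RABs of the ER and Golgi had 6 of 10 members higher and 1 lower in lactation, with a median log2 change of 0.39, where 33.1% and 35.2% of all genes were called in these directions. With library sizes less milk protein reads 5 were higher and 3 lower. RAB6B, a form of the Golgi RAB6 best known from neurons, had the largest log2 increase of any member in the edgeR and DESeq2 fits, while by limma on quantile-normalized RPKM it stood at 1.64, below RAB18 at 2.18 and RAB26 at 1.70. Its level was 0.829 to 1.46 CPM in late pregnancy (median 1.32) and 6.31 to 21.5 CPM in lactation (median 11.4). No library overlapped, though the lactation libraries spread more than 3-fold among themselves. RAB6B rose 9.29-fold (log2 change 3.22, SE 0.21, adjusted p = 4.1e-11). RAB6A, the ubiquitous form, stood at 70.4 to 78.3 CPM in late pregnancy (median 75.3) and 99.5 to 119.5 CPM in lactation (median 116.1), again without overlap, and rose 1.51-fold (log2 change 0.60, SE 0.05, adjusted p = 1e-09). Per length, RAB6B was still far below RAB6A in lactation, at a mean of 3.04 against 37.7 RPKM.

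RAB1A and RAB1B, which drive tethering of ER-derived vesicles at the Golgi, were both abundant and changed unequally. RAB1A went from 45.5 to 58.1 CPM in late pregnancy (median 49.1) to 103.7 to 129.3 CPM in lactation (median 109.5), without overlap, a 2.21-fold rise (log2 change 1.15, SE 0.06, adjusted p = 2.1e-12). RAB1B was at 87.2 to 103.5 CPM in late pregnancy (median 96.3) and 98.7 to 122.8 CPM in lactation (median 105.2), and these ranges overlapped. Its log2 change of 0.18 (SE 0.06, adjusted p = 0.0097) was called, but it went to -0.03 with library sizes less milk protein reads and to -0.09 on quantile-normalized RPKM, so its direction rests on the scaling.

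RAB2A, which acts at the ER-to-Golgi interface and on late endosomes, rose by 0.76 on the log2 scale, from 82.6 to 95.5 CPM to 136.2 to 161.1 CPM, while its relative RAB2B had a log2 change of -0.00 and was not called. RAB33B, a Golgi RAB linked to autophagy, rose by 0.67. RAB30 and RAB34, with log2 changes of -0.14 and -0.06, were not called. RAB19, a little-studied Golgi RAB, had the lowest log2 change of any member, but was kept through late pregnancy alone. It had 1.59 to 2.71 CPM in late pregnancy (median 2.36, 408 reads over the 9 libraries) and 0 to 0.220 CPM in lactation, where 4 of 6 libraries had no read and the other two had 1 each. The libraries did not overlap, and the pooled ratio of late pregnancy over lactation was 46.6 with a 95% counting interval of 12.8 to 386.0. RAB19 was called lower (adjusted p = 2.5e-09). Its fitted log2 change of -5.33 depends on how a count of 0 is treated.

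**Figure D3:**
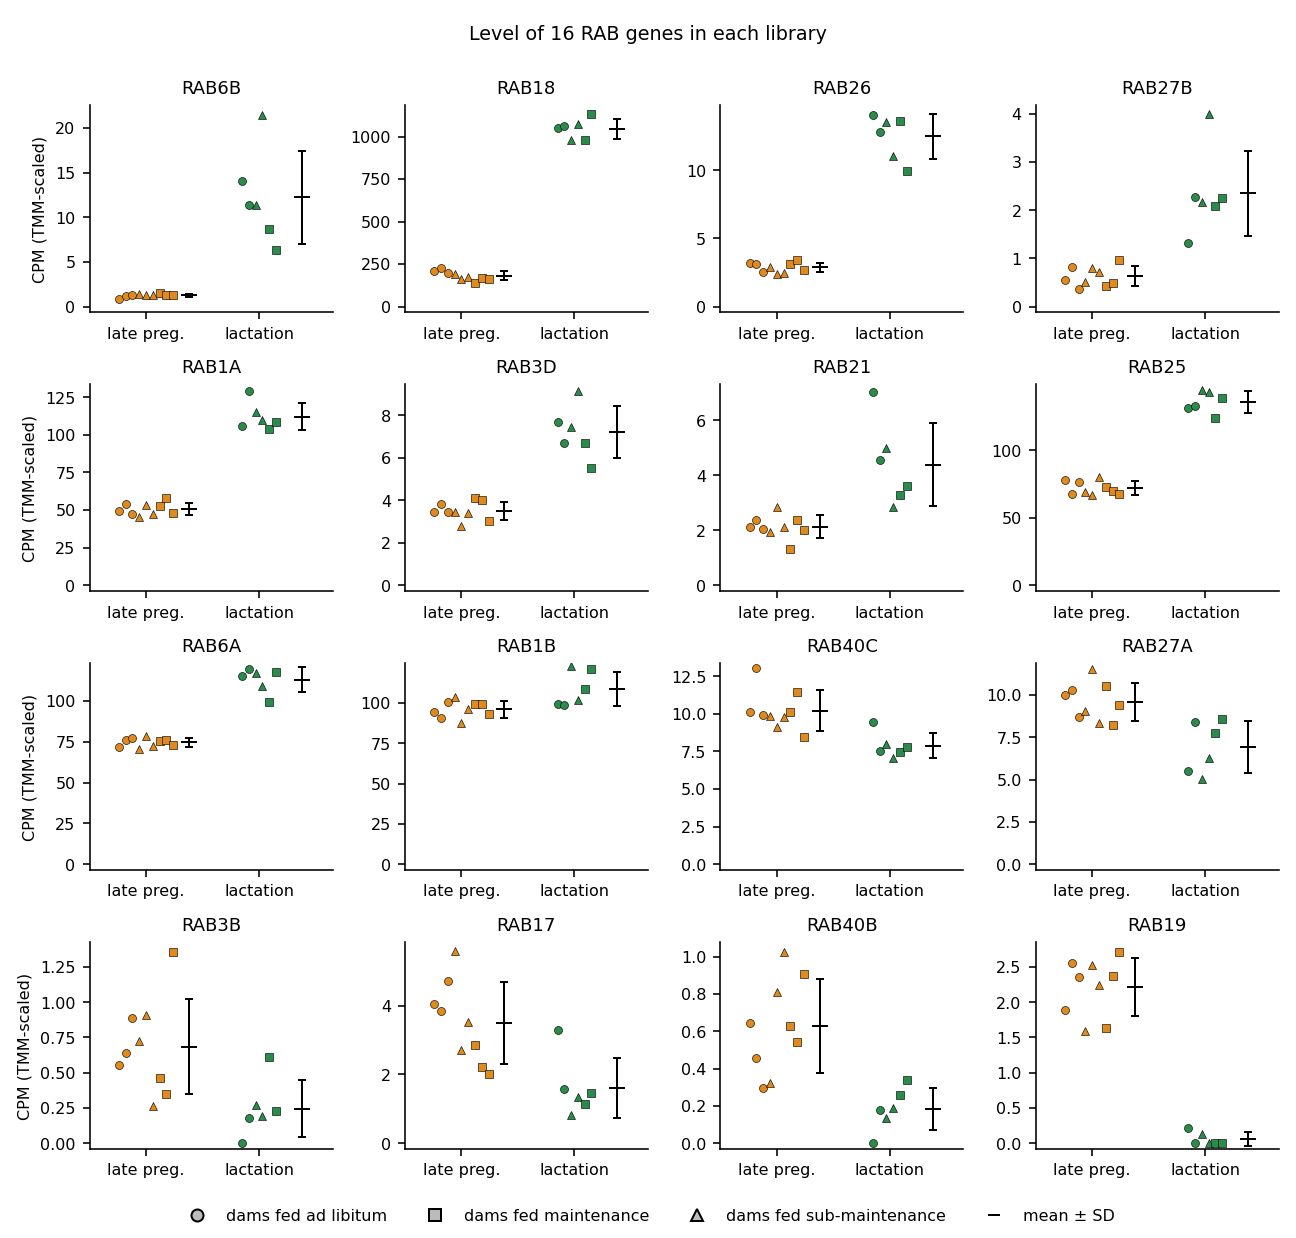
CPM on the TMM scale (y axes, each from 0) of the 16 RAB genes given in full, 1 panel per gene, with a point for each of the 9 late pregnancy and 6 lactation libraries, shapes for the feeding of the dams, and mean ± SD beside them. RAB18 moves from at most 226.3 to at least 977.7 CPM, RAB6B from at most 1.46 to at least 6.31 CPM, and RAB19 from at least 1.59 to at most 0.220 CPM.

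RABs of secretory vesicles and the plasma membrane had 6 of 10 members higher and 2 lower, with a median log2 change of 0.43, and 3 of the 6 rose more than 2-fold. The shares over all genes were 33.1% and 35.2%, and with upper quartile scaling or library sizes less milk protein reads 5 members were higher and 4 lower. RAB26, a RAB of secretory granules in exocrine glands, was at 2.40 to 3.41 CPM in late pregnancy (median 2.93) and 9.91 to 14.1 CPM in lactation (median 13.2), without overlap. The rise was 4.36-fold (log2 change 2.12, SE 0.11, adjusted p = 9.1e-13). RAB27B, which docks granules at the plasma membrane, was scarce in late pregnancy at 0.369 to 0.969 CPM (median 0.553) and reached 1.32 to 3.99 CPM in lactation (median 2.21). It rose 3.71-fold without overlap (log2 change 1.89, SE 0.24, adjusted p = 8.5e-07). RAB27A, its widely expressed relative, went the other way, from 8.21 to 11.6 CPM (median 9.43) to 5.01 to 8.56 CPM (median 7.01), with 1.36-fold lower levels in lactation (log2 change -0.45, SE 0.12, adjusted p = 0.003) and overlapping libraries.

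RAB3D, the RAB3 form of exocrine granules, was at 2.77 to 4.09 CPM in late pregnancy (median 3.46) and 5.52 to 9.13 CPM in lactation (median 7.08). The libraries did not overlap and the gene rose 2.03-fold (log2 change 1.02, SE 0.12, adjusted p = 3e-07). RAB3B, a form of neurons and some epithelia, had 0.266 to 1.36 CPM in late pregnancy (median 0.639) and 0 to 0.609 CPM in lactation (median 0.208), with overlap. Its fall (log2 change -1.15, SE 0.49, adjusted p = 0.044) rested on 124 against 13 reads in all, a pooled ratio of 2.18 with a 95% counting interval of 1.23 to 4.21. The call was lost, with adjusted p between 0.051 and 0.089, when any lactation pool except maintenance pool 1 was left out in turn, and likewise for late pregnancy pools 2 and 3 of the ad libitum group, 1 and 2 of the sub-maintenance group and 3 of the maintenance group. Counted over the whole gene instead of its exons, RAB3B had a log2 change of 0.21 (adjusted p = 0.17).

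RAB8A, RAB8B and RAB10, which carry vesicles to the basolateral or apical membrane, rose by 0.46, 0.39 and 0.47 on the log2 scale, of which RAB8B was not called with upper quartile scaling or with library sizes less milk protein reads. The level of RAB10 was 28.2 to 31.5 CPM in late pregnancy and 37.2 to 43.7 CPM in lactation, without overlap. RAB13, a RAB of tight junctions, and RAB15 had log2 changes of -0.10 and -0.59 and were not called under TMM. Both were called lower with upper quartile scaling and with library sizes less milk protein reads, and RAB13 also by limma. RAB15 lay between 0.380 and 2.66 CPM over all libraries.

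Recycling endosome RABs had 4 of 7 members higher and 1 lower (33.1% and 35.2% over all genes), with a median log2 change of 0.26. This balance rests on the scaling, since 2 were higher and 2 lower with upper quartile scaling and with library sizes less milk protein reads, and by limma 3 were higher and 2 lower with a median of -0.005. RAB25, an epithelial relative of RAB11 that returns cargo to the apical surface, was at 66.6 to 80.5 CPM in late pregnancy (median 69.9) and 124.0 to 144.7 CPM in lactation (median 135.5), and all lactation libraries lay above all late pregnancy libraries. It rose 1.88-fold (log2 change 0.91, SE 0.05, adjusted p = 1e-11). RAB17, which is also epithelial and takes part in transcytosis and apical recycling, had 2.00 to 5.60 CPM in late pregnancy (median 3.53) and 0.813 to 3.29 CPM in lactation (median 1.40). It fell 2.34-fold (log2 change -1.23, SE 0.30, adjusted p = 0.0011), although 1 lactation library, of the ad libitum group at 3.29 CPM, lay inside the late pregnancy range. RAB17 was kept through late pregnancy alone, so this fall is given as description only. RAB35 rose by 0.68 on the log2 scale. RAB4A and RAB11B rose by 0.58 and 0.26, calls that were lost with upper quartile scaling and with library sizes less milk protein reads, while RAB14 and RAB4B had log2 changes of -0.09 and 0.03 and were not called. RAB14 was called lower with both of those scalings and by limma.

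Early endosome RABs had 4 of 7 members higher (33.1% over all genes) and 3 not called, and their median log2 change was 0.29. With library sizes less milk protein reads and by limma 3 were higher. RAB5 genes govern fusion of early endosomes. RAB5A and RAB5B were called higher under TMM, RLE, upper quartile scaling, library sizes less milk protein reads and limma, and RAB5C was no longer called with library sizes less milk protein reads or by limma. RAB5B, the form with the most reads, went from 112.6 to 124.4 CPM to 156.8 to 170.4 CPM (log2 change 0.48), RAB5A had a log2 change of 0.58 and RAB5C of 0.29, each without overlap. RAB21, which moves integrins, was at 1.34 to 2.87 CPM in late pregnancy (median 2.12) and 2.85 to 7.03 CPM in lactation (median 4.09), with a rise of 2.00-fold (log2 change 1.00, SE 0.19, adjusted p = 1e-04) and ranges that overlapped slightly. The gene model used for RAB21 is a single stretch of 667 bases without introns on chromosome 17 and only 54.1% of its reads were uniquely placed, so its level is uncertain. On the uniquely placed reads alone its log2 change was 0.73 (adjusted p = 0.0029 by edgeR), a rise of less than 2-fold. RAB20, RAB22A and RAB31 had log2 changes of -0.17, 0.09 and 0.12 and were not called.

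Late endosome and lysosome RABs had 2 of 5 members lower and 1 higher (35.2% and 33.1% over all genes). Their median log2 change of -0.29 was the lowest of the role groups under TMM, next to -0.24 in the group of RAB18. By limma the medians were -0.11 and -0.30, so this order rests on the method. With library sizes less milk protein reads 3 members were lower and 0 higher, and by limma 2 and 0. RAB12, which steers membrane receptors to lysosomes, fell by 0.72 on the log2 scale (SE 0.08, adjusted p = 1.1e-07), from 27.9 to 33.6 CPM in late pregnancy to 13.5 to 21.2 CPM in lactation, without overlap. RAB24, linked to autophagy, fell by 0.29. RAB7A, the main RAB of late endosomes, rose by 0.33 (adjusted p = 7.2e-05), from 31.2 to 37.0 CPM to 34.5 to 47.1 CPM with overlap, and was not called with library sizes less milk protein reads or by limma. RAB9A and RAB38, with log2 changes of 0.04 and -0.53, were not called.

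The ratio of 2 related members within a library does not depend on how libraries are scaled. Of 12 pairs of related RABs with both genes kept, 9 changed their ratio between the states by an exact two-sided permutation test that exchanged the state labels in all 5005 ways (Benjamini-Hochberg over the 12 pairs), and in 4 pairs the libraries did not overlap. No such share was taken over pairs of other genes. Over single genes, 33.1% were called higher and 35.2% lower, and 40.2% did not overlap. The counts of pairs are therefore not read as particular to related RABs. RAB1A was 1.59 to 2.21 times as abundant as RAB1B per length in late pregnancy (median 1.88) and 3.26 to 4.74 times in lactation (median 3.66), a 1.96-fold shift with an exact permutation p of 0.0002, the smallest this test can give (adjusted p = 0.0006). RAB6A exceeded RAB6B 67.1 to 116.3 times in late pregnancy and 6.82 to 25.0 times in lactation, a 5.90-fold shift (exact permutation p = 0.0002, adjusted p = 0.0006).

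The balance within RAB27 came close to even, on few reads of RAB27B (118 over the late pregnancy libraries and 100 over the lactation libraries). RAB27A was 3.55 to 9.20 times as abundant as RAB27B per length in late pregnancy (median 6.06) and 0.574 to 1.52 times in lactation (median 1.35), a 5.13-fold shift (exact permutation p = 0.0002, adjusted p = 0.0006). For RAB2A over RAB2B the ratio went from 4.90 to 6.22 to 8.11 to 12.9, a 1.70-fold shift with the same exact permutation p. The ratios of RAB3B to RAB3D (4.63-fold lower in lactation), RAB40B to RAB40C (1.96-fold lower), RAB4A to RAB4B (1.42-fold higher), RAB5A to RAB5C (1.22-fold higher) and RAB5B to RAB5C (1.14-fold higher) also passed the test with overlapping libraries. The first 2 of them rest on few reads, and RAB3B and RAB40B were kept through late pregnancy alone. RAB5A to RAB5B, RAB8A to RAB8B and RAB22A to RAB31 shifted 1.07-, 1.04- and 1.02-fold and did not pass (exact permutation p = 0.24, 0.71 and 0.86).

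**Figure D4:**
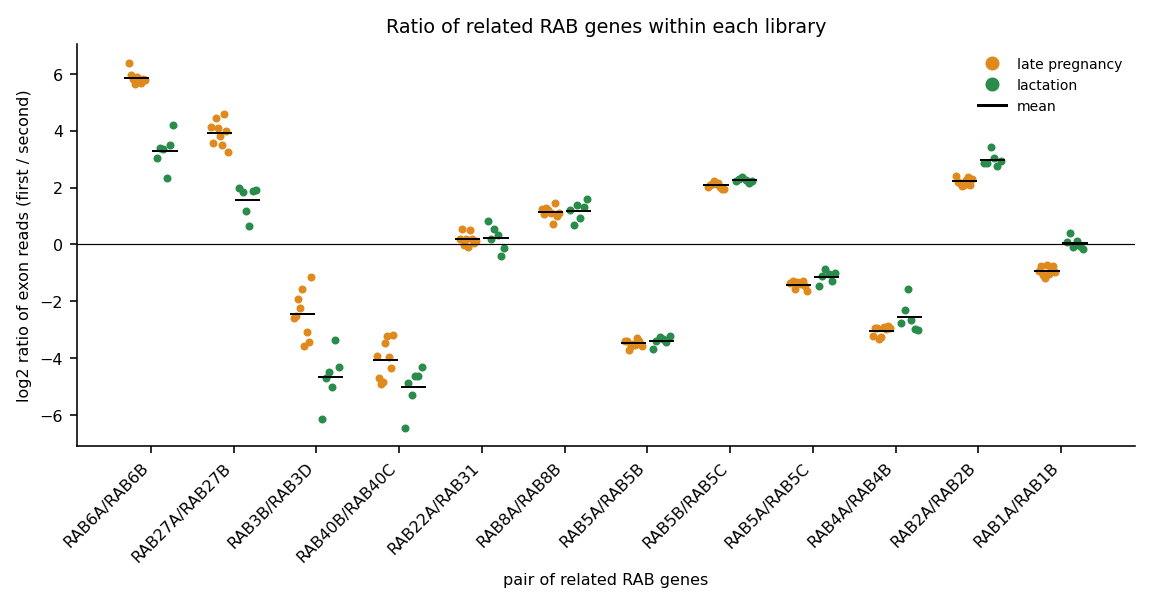
Log2 ratio of exon reads of 2 related RAB genes (y axis) for 12 pairs (x axis), with a point for each library and a bar for the mean of a state. The ratios of RAB6A to RAB6B, RAB27A to RAB27B, RAB2A to RAB2B and RAB1A to RAB1B show no overlap between late pregnancy and lactation.

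Reads on introns gave a second readout of the same libraries, on sequence that is mostly absent from mature mRNA. They could be tested for 32 members, of which 13 were higher, 4 lower and 15 not called, against 29.0% higher and 29.0% lower of 10344 genes. The median log2 change of intron reads was 0.26 over these members and -0.01 over all genes so tested. CPM of introns are scaled to the intron reads of a library alone. They are therefore not comparable in level with the CPM of exons given above. Introns held only 12.6% of the RAB18 reads in late pregnancy and 11.4% in lactation. RAB18 introns went from 217.1 ± 48.6 CPM (SD, n = 9) to 1039 ± 176.8 CPM (n = 6), a log2 change of 2.26 (SE 0.13, adjusted p = 2.3e-13) beside 2.53 on exons. RAB26 introns changed by 1.66 (SE 0.21, adjusted p = 3.2e-07) and those of RAB1A by 0.71 (SE 0.07, adjusted p = 1.3e-08) on the log2 scale.

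Among members that fell, RAB17 was kept through late pregnancy alone, so its intron reads are given as description only. They went from 37.7 ± 7.27 to 12.3 ± 6.64 CPM, a log2 change of -1.74 (SE 0.24). The intron reads of RAB12 had a log2 change of -0.02 (SE 0.09, adjusted p = 0.84) beside the fall of 0.72 on exons. For RAB14 and RAB30 it was the reverse, with intron reads lower by edgeR (log2 change -0.64, adjusted p = 2.3e-06, and -0.86, adjusted p = 1.2e-06) and exon reads not called under TMM. RAB3B had 88.2% of its reads in late pregnancy and 95.4% in lactation on introns, with a log2 change of 0.27 there (adjusted p = 0.1). The difference between exon and intron changes was not itself tested.

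**Figure D5:**
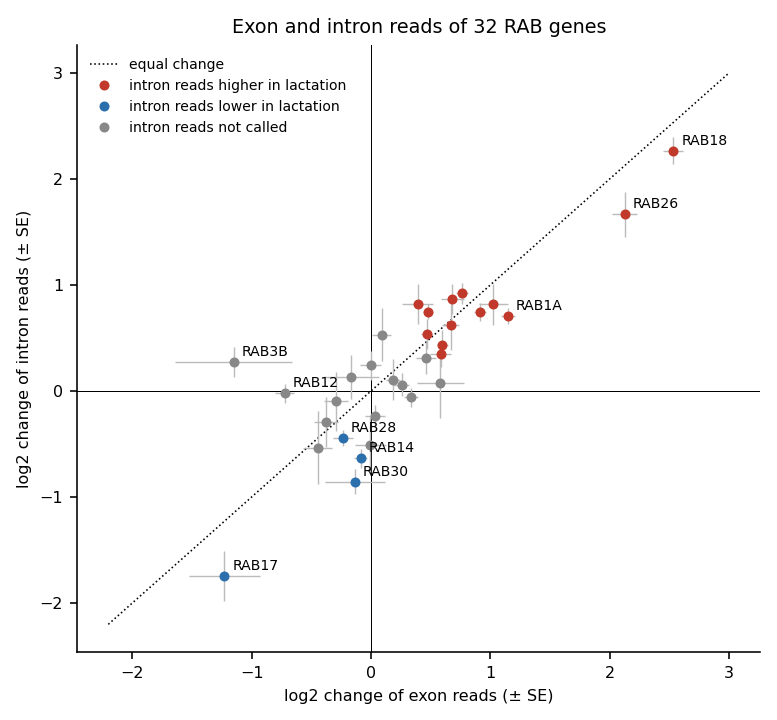
Log2 change of intron reads (y axis) against log2 change of exon reads (x axis) for the 32 RAB genes with enough intron reads, bars ± SE, coloured by the call on introns, with equal change as a dotted line. RAB18 and RAB26 are highest on both axes, RAB17 is lowest on both, and RAB12 has an exon change of -0.72 with an intron change of -0.02.

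Feeding of the dams was compared over the 9 late pregnancy libraries. None of the 44 members was called by the quasi-likelihood F-test of edgeR, nor was any gene (0% of 13747), and 2 members had an unadjusted p under 0.05 against 4.15% of all genes. RAB18 had the lowest p. It was at 197.7 to 226.3 CPM in the 3 ad libitum libraries, 163.6 to 192.1 in the sub-maintenance libraries and 140.8 to 165.4 in the maintenance libraries. The ad libitum libraries lay above all others, and the remaining groups overlapped. By edgeR the adjusted p was 0.757 over all 13747 genes, and it ranged from 0.411 to 1 over the other edgeR fits. DESeq2 called RAB18 (adjusted p = 0.0215) and no other member, where it called 0.145% of all genes. In lactation the RAB18 ranges of the 3 groups overlapped, at 1049 to 1063, 977.7 to 1072 and 979.2 to 1133 CPM.

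Whether the change between states differed by feeding of the dams was tested as an interaction over all 15 libraries. No member was called by edgeR or DESeq2, and no gene was by edgeR (0% of 13345), while 4 members had an unadjusted p under 0.05 in the edgeR test against 6.56% of all genes. RAB6B had the lowest (adjusted p = 0.735). Its lactation level was 11.4 and 21.5 CPM in the sub-maintenance pools, 11.4 and 14.1 in the ad libitum pools and 6.31 and 8.70 in the maintenance pools, while its late pregnancy levels all lay between 0.829 and 1.46 CPM. RAB4A reached 3.23 and 5.01 CPM in the sub-maintenance lactation pools and 1.91 to 3.34 CPM in the other lactation pools (adjusted p = 0.735 by edgeR). With 2 lactation pools per group these spreads rest on very few libraries.

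The genes that load, extract and end the active state of RABs, and those that read it, moved in both directions. Of 159 listed regulators and effectors 142 were tested, and 61 were higher, 39 lower and 42 not called, with a median log2 change of 0.08, beside 33.1% higher and 35.2% lower over all genes. With library sizes less milk protein reads the counts were 44 higher and 62 lower. Of the 8 genes that prenylate RABs or keep them soluble, 4 were higher and 2 lower, all by less than 2-fold. CHML, a RAB escort protein that presents RABs for prenylation, rose by 0.90 on the log2 scale, and was chosen after its value was seen.

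Among GEFs, 19 of 43 were higher and 11 lower (33.1% and 35.2% over all genes). DENND3, a GEF for RAB12, went from 9.32 to 14.2 CPM in late pregnancy to 47.5 to 63.9 CPM in lactation without overlap, a rise of 5.08-fold (log2 change 2.35, SE 0.09, adjusted p = 8.5e-15). Among GAPs, 17 of 36 were higher and 9 lower (the same shares apply). TBC1D9B (log2 change 2.61, SE 0.10) and TBC1D8 (2.14, SE 0.10) rose, with TBC1D9B at 424.3 to 754.0 CPM in lactation against 81.1 to 96.3 CPM in late pregnancy. TBC1D14, which binds RAB11 and restrains autophagy, fell (log2 change -2.27, SE 0.11), as did TBC1D10C (-1.84, SE 0.19) and TBC1D1 (-1.53, SE 0.11), a GAP known from glucose transporter traffic. The adjusted p of these 5 GAPs lay between 1.6e-14 and 4e-08, and none of them overlapped between states.

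Among effectors, 21 of 55 tested were higher and 17 lower, close to the 33.1% and 35.2% over all genes. SYTL2, which tethers RAB27 granules at the plasma membrane, went from 61.0 to 110.2 CPM to 231.0 to 282.9 CPM (log2 change 1.72, SE 0.10, adjusted p = 1.6e-11). MLPH, the melanophilin that links RAB27A to myosin, fell from 1.03 to 2.78 CPM to 0 to 0.225 CPM (adjusted p = 3.2e-07). MLPH had 382 reads in late pregnancy and 4 in lactation, a pooled ratio of 21.8 with a 95% counting interval of 8.45 to 80.4. With at most 2 reads in any lactation library, MLPH entered the test through late pregnancy alone. Its fall is therefore given as description only. The RAB7 effectors OSBPL1A (log2 change 1.78, SE 0.06, adjusted p = 4.4e-15) and RILP (1.60, SE 0.22, adjusted p = 2.6e-06) rose, with RILP at 1.98 to 4.06 CPM in lactation. RAB11FIP4, a RAB11 effector, fell (log2 change -1.52, SE 0.26, adjusted p = 2.8e-05).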

How the data were processed

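Paired-end reads of 15 libraries of pooled RNA (TruSeq kit, Illumina Hi-Seq) were mapped by the authors in CLC Genomics Workbench. The genome is named Oar_v3.1 in the labels and version 3.2 in the published methods. The deposited counts are reads on exons, and on whole genes, per feature without normalization, and a column of uniquely placed reads stands beside each. The deposited RPKM are the authors' reads per kilobase of exon and per 1e6 reads on genes, and recomputing them from the counts gave a relative deviation of at most 3.5e-07. The deposited normalized values, treated as a score, are the authors' quantile-normalized RPKM. Columns with the authors' own fold changes and p-values were not used.

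Exon reads (whole-gene reads for the 5583 features with no annotated transcript) were tested in R 4.3.3 with edgeR 4.0.16 (TMM, filterByExpr by state, quasi-likelihood F-test, no covariates, Benjamini-Hochberg over all tested genes). Intron reads are whole-gene less exon reads, and were scaled with their own library sizes and TMM factors. The study's methods use the Baggerly test, for which the count test stands in here. DESeq2 1.42.0 and limma 3.58.1 (on log2 of quantile-normalized RPKM plus 1) gave alternatives, and the fits were tested on simulated counts. Ratios of related genes used 0.5 added to each count. Python 3.11.15 with scipy 1.17.1 did the rest.

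Each kept member is described by role. Full statistics are given for called members with an absolute log2 change above 1, the 3 with the highest mean deposited RPKM in each state and their related partners, and for regulators called with an absolute log2 change above 1.5. The members, lists and tests were chosen with earlier results of these data known. No 2 libraries agreed within sampling noise. Reads were counted without molecular identifiers, so intervals cover counting error only, and p-values measure the spread between pools. Strand was not stated for the counting. The lane in the column names served only as a check, since each library was run over 2 lanes and combined.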

Additional observations from a re-analysis of the deposited data

Results flagged for a closer look

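Each of the 44 members was checked for a library far from the others of its state, in 88 groups of values, where chance alone would mark about 1 group in 20 and so about 4.4. It marked 4. RAB14 had 155.0 CPM in ad libitum lactation pool 1, above the next highest lactation library at 139.0. RAB7A had its lowest lactation value, 34.5 CPM, in the same pool, under the next at 42.3. RAB2B was at 13.6 CPM in sub-maintenance lactation pool 1, under the next at 19.1. RAB6B was at 0.829 CPM in ad libitum late pregnancy pool 1, under the next at 1.19.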

How the results depend on the processing

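With library size only, 40 RAB members were lower and 2 higher, with 136 and 3 of the regulators and effectors, and log2 changes turned negative for RAB1A (-0.76), RAB1B (-1.72), RAB21 (-0.90), RAB25 (-0.99), RAB27B (-0.016), RAB3D (-0.87) and RAB6A (-1.31). With library size less milk protein reads, 15 members and 62 regulators and effectors were lower, and RAB1B was at -0.028. RAB1B was at -0.086 by limma on quantile-normalized RPKM, and RAB3B at 0.21 on whole-gene reads. DESeq2 found 1 member, RAB18, that differed with the feeding of the dams. The other counts over all members, all regulators and effectors, intron reads and pairs stayed within 1.5 times the reported ones under RLE, upper quartile scaling, DESeq2, limma, other filters, uniquely placed reads, whole-gene reads, dam nutrition or lane as covariate. Counts within some role groups moved more, and counts under other scalings are given beside each group. Leaving out each library gave 21 to 22 members higher and 8 to 10 lower.

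Whether pools with the same number share ewes could not be settled, since weak correlations of pooled RNA cannot exclude it. Libraries with the same dam group and number correlated in their deviations at -0.05 to 0.12, and 1 of 6 ranked first with its own number. Ad libitum pool 2 and maintenance pool 1 had rank 2 with theirs. With these numbers as a replicate block, 21 members were higher and 6 lower, and RAB3B was not called (log2 change -0.999, adjusted p = 0.078). Members with few lactation reads (RAB19, RAB40B and RAB3B) are the least precise.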
